A study of Rattus norvegicus with 21 samples.

Results

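Nuclear-encoded subunits of mitochondrial complex I were followed by bulk RNA sequencing of the left ventricle of Sprague Dawley rats, 24 h after ligation of the left anterior descending coronary artery. The members were all rows of the count table whose symbol is Nduf followed by a, b, c, s or v and a digit, which gave 34 of 17085 rows. Of the 45 symbols that start with Nduf, 7 Ndufaf assembly factors, 3 names ending in -ps and Ndufab1, an acyl carrier protein, fell outside this pattern. Of the 34, 33 passed the filter on low counts. The exception was Ndufs6, an N module subunit, with 6 counts over all 21 libraries and at most 2 in any of them. Ndufa3, Ndufa9, Ndufa11, Ndufb1 and Ndufa4l were not analysed here, and the counts of Ndufs5 were the same in every library as those of LOC100363268, so its reads may be shared.

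The 7 groups held 3 libraries each, all labelled as infarct zone tissue of the left ventricle, Sham included. MI1h_F and MI1h_R hearts had 1 h of ischemia and 23 h of reperfusion, MI6h_F and MI6h_R hearts had 6 h of ischemia and 18 h of reperfusion, and in MI24h_F and MI24h hearts the artery stayed tied for 24 h. Sham hearts were not infarcted, and the labels give no collection time for them. The letter F marks hearts that, by the series' design text, were pretreated with fenofibrate, an agonist of the nuclear receptor PPARα; the sample labels do not spell the letter out, and no group of Sham hearts with F was among the samples. The labels give no sex or age, and they shorten MI1h_R and MI6h_R to MI1h and MI6h in one field, where the sample titles were followed. Replicate numbers were 1, 2, 4 or 5 in the groups with F and 11, 21, 31 or 41 in all others. The effect of F cannot be told apart from any other difference between these sets of libraries. Whether each library is its own animal is not stated, so p-values measure only the spread between these libraries, which may be technical.

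Complex I takes electrons from NADH, passes them along a chain of iron-sulfur clusters to ubiquinone and pumps protons across the inner mitochondrial membrane. The N module oxidises NADH, the Q module reduces ubiquinone, and the proximal and distal membrane arms hold the proton pumps. Of the core subunits shared with bacteria, those of the N and Q modules are encoded in the nucleus and those of the pumps, the ND subunits, in mitochondrial DNA, and the remaining supernumerary subunits are nuclear. Heart muscle, which lives on oxidative metabolism, is among the tissues richest in the complex, and reperfusion after ischemia is known for a burst of superoxide from it when succinate drives electrons backwards. The nuclear subunit genes are regarded in human and mouse cells as targets of the estrogen-related receptors (ERR) with the coactivator PGC-1α, of NRF1 and of YY1. Roles given here come from the human, mouse and bovine enzyme. Ndufa4, despite its name, encodes a subunit of complex IV, and Ndufa4l2 its paralog, a hypoxia-inducible gene in human and mouse cells.

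Promoter windows of 31 of the 34 members were matched by symbol in RefSeq (GRCr8), each from 250 bases before to 50 after the first base of the gene. The ERR motif AAGGTCA was found on either strand in 4 of the 31 (12.9%), against 4.61% of 33469 promoters of the same length. The YY1 motif AAGATGGC was found in 7 (22.6%), against 3.17%. All 7 began at -1 to 26 from the first base of the gene. The motif contains the letters ATG, and overlap with translation starts was not tested. The palindromic NRF1 motif, searched as 1 fixed string, was in 0 of 31, against 0.852%. The letters ACGTG, bound by hypoxia-inducible factors, were in 8 (25.8%), against 19.3%, and CACGTG, which contains them, in 2 (6.45%), against 6.42%. These are matches of letters only. The members that hold the ERR motif were Ndufb2, Ndufb4, Ndufs5 and Ndufs6, and those with the YY1 motif were Ndufa2, Ndufa4l2, Ndufa6, Ndufb8, Ndufs4, Ndufs6 and Ndufs7. Windows of 5 members are shown 5′ to 3′ on the strand of the gene, the tested ones that hold the ERR motif and, for YY1, the core subunit Ndufs7 and Ndufa4l2, the member whose values stood apart from the rest. Capitals mark the motif, which in Ndufs5 lies on the reverse strand, and the other letters follow RefSeq.
Ndufb2 promoter, chr4:69334057-69334356 on the plus strand, ERR motif starting at -193 from the first base of the gene: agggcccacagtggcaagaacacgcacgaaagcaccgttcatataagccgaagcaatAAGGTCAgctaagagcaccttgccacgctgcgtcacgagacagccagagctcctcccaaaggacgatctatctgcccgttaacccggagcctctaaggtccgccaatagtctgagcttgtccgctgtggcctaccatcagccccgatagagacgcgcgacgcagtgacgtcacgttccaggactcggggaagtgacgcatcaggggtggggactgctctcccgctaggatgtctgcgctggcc
Ndufb4 promoter, chr11:76568928-76569227 on the plus strand, ERR motif starting at 26: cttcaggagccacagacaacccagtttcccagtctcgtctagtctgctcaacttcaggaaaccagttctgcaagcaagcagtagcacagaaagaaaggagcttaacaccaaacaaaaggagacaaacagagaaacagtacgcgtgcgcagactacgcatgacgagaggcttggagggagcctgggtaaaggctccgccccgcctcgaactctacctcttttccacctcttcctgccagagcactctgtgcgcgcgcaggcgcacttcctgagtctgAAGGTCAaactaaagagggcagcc
Ndufs5 promoter, chr5:141264353-141264652 on the minus strand, ERR motif starting at -221: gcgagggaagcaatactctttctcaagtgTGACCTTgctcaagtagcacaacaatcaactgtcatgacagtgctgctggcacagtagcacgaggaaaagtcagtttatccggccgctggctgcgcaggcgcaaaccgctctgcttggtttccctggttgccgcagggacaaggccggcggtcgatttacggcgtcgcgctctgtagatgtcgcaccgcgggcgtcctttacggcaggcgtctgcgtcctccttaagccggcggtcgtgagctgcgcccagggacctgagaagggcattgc
Ndufs7 promoter, chr7:10110449-10110748 on the minus strand, YY1 motif starting at 4: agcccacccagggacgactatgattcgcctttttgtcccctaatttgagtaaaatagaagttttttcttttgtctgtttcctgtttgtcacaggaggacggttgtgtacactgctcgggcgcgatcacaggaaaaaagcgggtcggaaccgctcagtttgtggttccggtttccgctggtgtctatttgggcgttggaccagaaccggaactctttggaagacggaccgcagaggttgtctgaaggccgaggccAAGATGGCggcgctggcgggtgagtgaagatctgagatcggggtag
Ndufa4l2 promoter, chr7:65241919-65242218 on the plus strand, YY1 motif starting at -1: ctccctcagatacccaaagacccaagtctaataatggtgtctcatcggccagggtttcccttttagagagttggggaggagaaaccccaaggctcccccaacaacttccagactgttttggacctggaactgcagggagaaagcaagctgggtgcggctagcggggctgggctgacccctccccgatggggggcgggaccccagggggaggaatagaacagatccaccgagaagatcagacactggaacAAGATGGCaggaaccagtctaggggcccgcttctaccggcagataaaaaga

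Library totals ran from 12208041 to 18393795 estimated counts. Mitochondrial genes took 33.5% to 38.5% of the counts in Sham libraries and 11.3% to 20.2% in the other 18. The TMM factors that scale the libraries ran from 0.996 to 1.17 in the injured groups and from 0.535 to 0.677 in Sham, so values against Sham depend on the scaling, as given below. Values within a gene are TMM-scaled CPM (counts brought to a common library size), and levels are compared between genes only as TPM, which allow for transcript length. Cardiomyocyte markers, 12 genes, were present in every group, none of them under 1 TPM in all 3 libraries of a group. In bulk tissue fewer cells of a type and less RNA per cell cannot be told apart.

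In Sham hearts the members spanned a wide range of mean TPM. Ndufb9, a distal arm subunit of the LYR family, led with 1412 ± 172 TPM (SD, n = 3), and its libraries did not overlap those of the next gene. Ndufa5 of the Q module followed with 1069 ± 157 TPM and Ndufa13 of the proximal arm with 1031 ± 214 TPM, a pair that overlapped. Ndufv2, the highest of the N module, averaged 797 ± 93.2 TPM. Core subunits were not the most abundant transcripts. Ndufv2, the highest of them, ranked 8 among the members on the mean. Ndufs7 averaged 680.2 ± 107 TPM and Ndufs8 439 ± 52.6 TPM. The lowest were Ndufc1 with 30.8 ± 13.4 TPM and Ndufa4l2 with 27.8 ± 3.32 TPM, apart from Ndufs6.

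The members are short transcripts. Relative to the median of 8234 genes, the effective length behind the members' values had a median of 0.210, at percentile 3.5 of those genes, and 32 of 33 members were shorter than the median gene. The range ran from 0.0816 for Ndufc1 to 1.38 for Ndufs1. As an alternative, a trend on length was therefore removed in each library before the fit. It was the trend of the library's deviations from the gene means over all libraries.

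**Figure D1:**
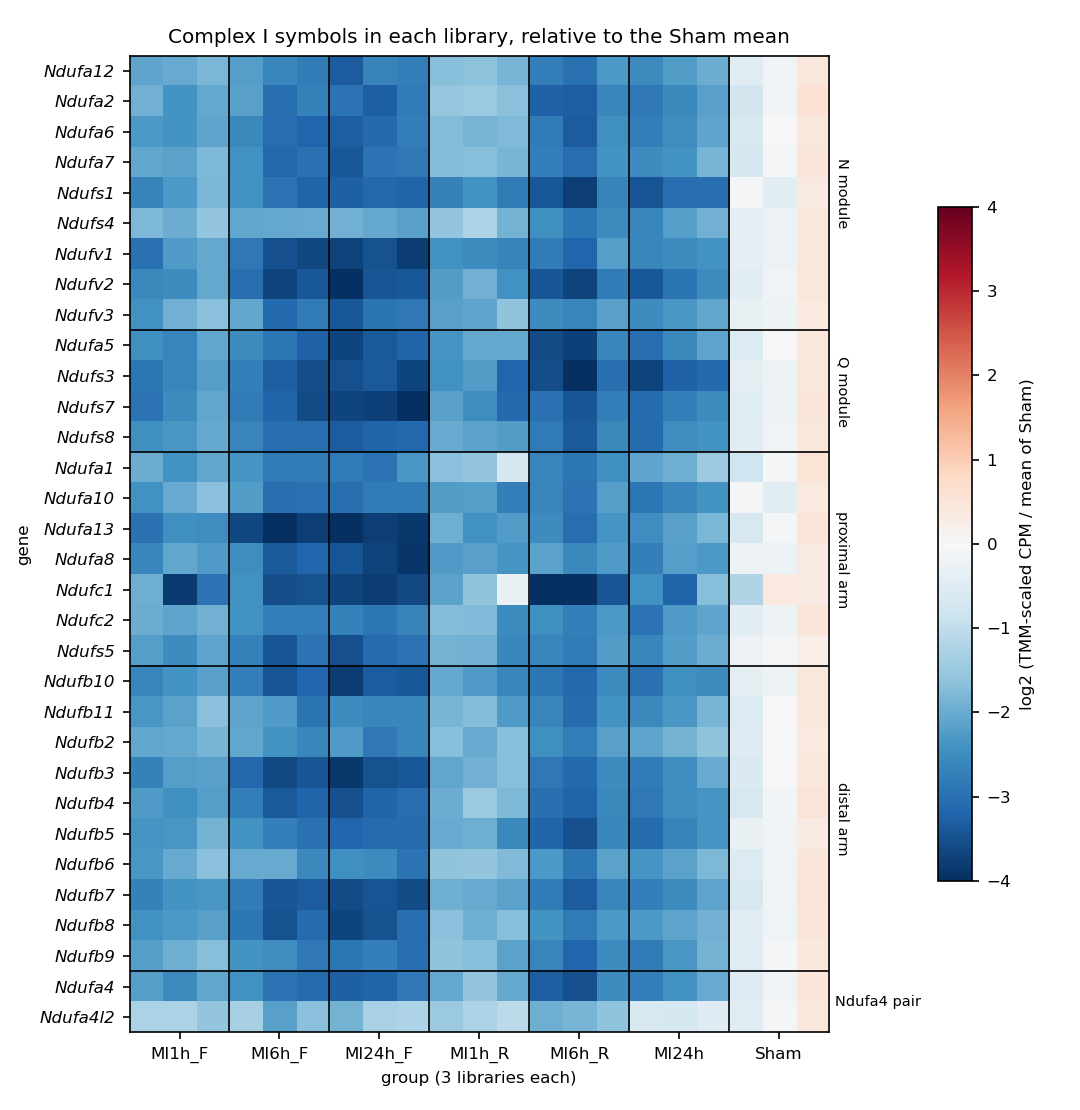
Heatmap of 32 of the 33 tested members, ordered by module, in the 21 libraries; colour gives log2 of the CPM over the Sham mean, and values beyond the scale take its end colour. The injured libraries on the left are below Sham on the right for nearly every member, and Ndufa4l2 is the palest row of the MI24h columns.

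Transcripts of complex I were far lower in every injured group than in Sham. On the CPM scale the median member stood at 20.9% of its Sham mean in MI1h_F hearts, 14.2% in MI6h_F, 11.6% in MI24h_F, 26.1% in MI1h_R, 15.3% in MI6h_R and 19.1% in MI24h. MI24h_F had the lowest mean of the 7 groups for 28 of 33 members and MI6h_R for the other 5, and Sham had the highest for all 33. At an adjusted p under 0.05 in edgeR's quasi-likelihood test, 33 of 33 members fell in MI1h_F, 33 in MI6h_F, 33 in MI24h_F, 32 in MI1h_R, 33 in MI6h_R and 32 in MI24h. The share of all 11742 tested genes that fell was 24.2% in MI1h_F, 28.5% in MI6h_F, 30.1% in MI24h_F, 24.1% in MI1h_R, 28% in MI6h_R and 26.2% in MI24h. The median log2 fold change of the members was -2.26, -2.82, -3.11, -1.94, -2.70 and -2.39 in the same order, beside medians of 0.03 to 0.07 over all genes. All 3 libraries lay below all 3 Sham libraries for 33 members in each group except MI1h_R, where it was 31, against 26.8% of all genes in MI1h_F, 28.6% in MI6h_F, 30.3% in MI24h_F, 24.5% in MI1h_R, 28.4% in MI6h_R and 26.1% in MI24h. The 6 comparisons share the 3 Sham libraries.

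The N module oxidises NADH. Ndufv1, which binds NADH and the flavin, had 197, 211 and 233 CPM in MI24h libraries, against 956, 1034 and 1649 CPM in Sham. Ndufv2, which carries an iron-sulfur cluster, had 89.7, 124 and 159.5 CPM in MI24h, against 690.0, 851 and 1280.2 CPM in Sham. Ndufs1, the largest subunit of the module, had 141, 185 and 191 CPM in MI24h, against 1495, 1158 and 1966 CPM in Sham. For all 3 genes the groups did not overlap, with the Sham libraries themselves differing from each other by more than the MI24h ones. The log2 fold changes of MI24h against Sham were -2.50 ± 0.29 for Ndufv1, -2.92 ± 0.31 for Ndufv2 and -3.16 ± 0.30 for Ndufs1 (± SE, as in later parentheses; edgeR adjusted p = 1.87e-06, 8.98e-07 and 4.13e-07). Ndufs1 fell furthest of all members in MI1h_R, to 235, 293 and 216 CPM, 16.1% of the Sham mean. All 9 tested members of the module fell in MI24h, with a median of -2.43.

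The Q module hands electrons to ubiquinone. Ndufs3, a scaffold of its assembly, showed the largest fall of MI24h against Sham, with 46.8, 64.8 and 69.5 CPM in MI24h and 458, 521 and 834 CPM in Sham (-3.32 ± 0.33, adjusted p = 5.17e-07). Ndufs7, which helps to line the ubiquinone site, had 74.2, 91.1 and 109 CPM in MI24h, against 448, 546 and 883 CPM in Sham (-2.78 ± 0.31). Ndufs8, which holds a pair of iron-sulfur clusters, had 50.2, 76.2 and 81.7 CPM in MI24h, against 309, 387 and 578 CPM in Sham (-2.61 ± 0.24). The supernumerary Ndufa5 had 71.6, 98.6 and 138 CPM in MI24h, against 403, 592 and 789 CPM in Sham (-2.53 ± 0.32). No library of MI24h reached the lowest Sham library for any of these 4 genes. The 7 core subunits of both modules had a median of -2.78 in MI24h, -2.54 in MI1h_R and -3.03 in MI6h_R, and the 24 tested supernumerary subunits -2.30, -1.84 and -2.66, a difference in medians that was not tested. Core subunits were also longer than the median member, with relative effective lengths from 0.258 (Ndufs7) to 1.38 (Ndufs1), against 0.210. The part of length in this difference was not tested.

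For core subunits the remaining injured groups had means on both sides of that of MI24h, and each library of the genes given here lay below the lowest Sham library. Ndufv1 had 168, 107 and 96.8 CPM in MI6h_F, 227, 209 and 189 in MI1h_R and 173, 134 and 262 in MI6h_R. Ndufs1 had 244, 316 and 434 CPM in MI1h_F, 289, 197 and 168 in MI6h_F and 145, 114 and 242 in MI6h_R. Ndufs3 had 82.2, 98.9 and 132 CPM in MI1h_F, 52.9, 58.9 and 47.7 in MI24h_F, 112, 129.7 and 67.8 in MI1h_R and 52.2, 35.6 and 75.2 in MI6h_R. Libraries of 1 injured group often spanned those of another for these genes. Ndufv2 had 114, 72.0 and 90.4 CPM in MI6h_F, 200.4, 247 and 175 in MI1h_R and 86.8, 71.8 and 135 in MI6h_R. Ndufs8 had 76.8, 85.4 and 102 CPM in MI1h_F, 68.2, 51.4 and 52.1 in MI6h_F, 42.4, 45.9 and 47.7 in MI24h_F, 106, 95.5 and 90.8 in MI1h_R and 59.6, 41.5 and 70.4 in MI6h_R. For both genes the libraries of MI1h_R lay above those of MI24h_F. Ndufs7 had 88.1, 67.5 and 52.3 CPM in MI6h_F, 140.1, 111 and 72.1 in MI1h_R and 78.3, 58.3 and 92.5 in MI6h_R.

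**Figure D2:**
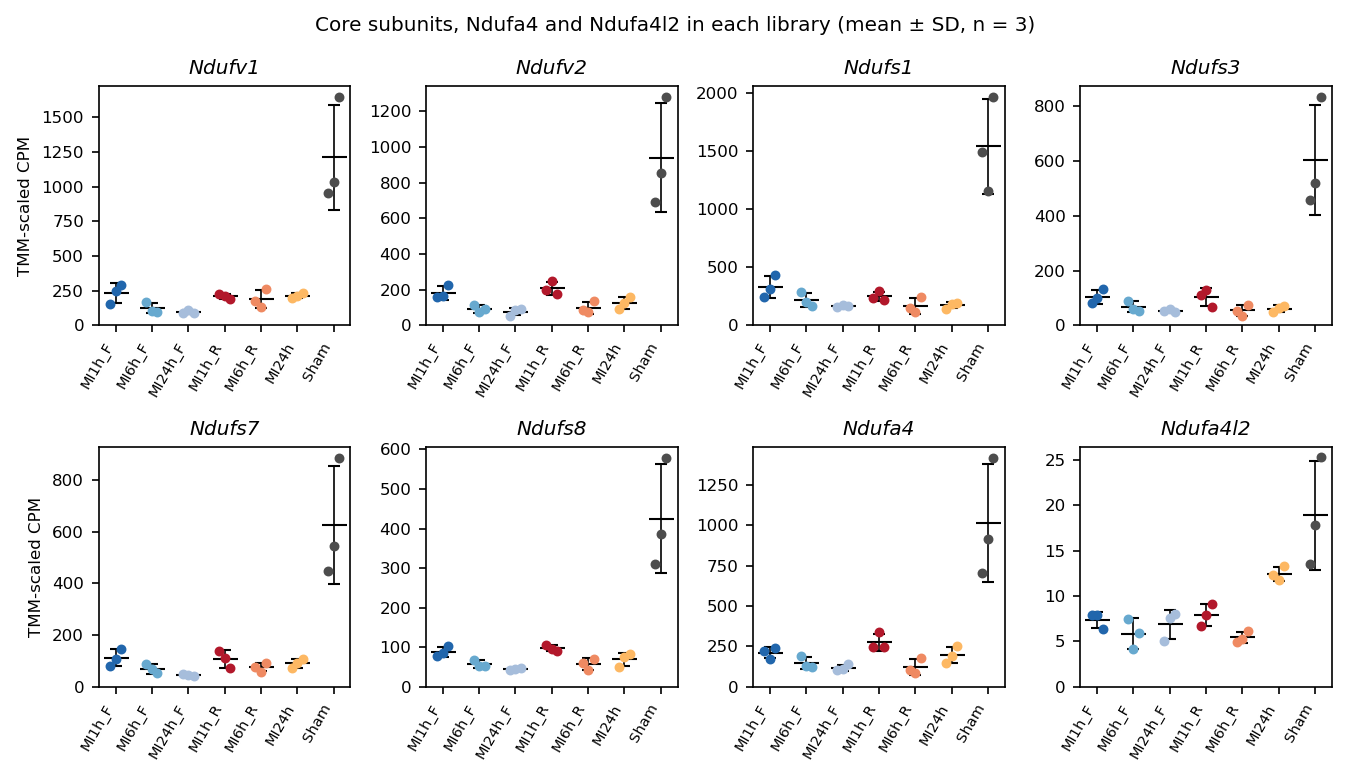
CPM of 6 nuclear-encoded core subunits, Ndufa4 and Ndufa4l2 in each library of the 7 groups (points), with the mean and SD of 3 libraries (bars), Sham on the right. Each core subunit shown is several times higher in Sham than in any injured group, whereas Ndufa4l2 in MI24h (11.7 to 13.3 CPM) comes close to its lowest Sham library (13.5 CPM).

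The membrane arms fell as well. Of the proximal arm, Ndufa13, also known as GRIM-19, had 82.0, 103 and 129 CPM in MI24h, against 294, 434 and 659 CPM in Sham (-2.14 ± 0.30). It was the member that stood lowest relative to Sham in both ischemia groups of longer duration with F, at 6.59% of the Sham mean in MI6h_F and 6.24% in MI24h_F. Ndufc1, a small membrane subunit of low abundance, was the one member not called in MI1h_R against Sham (-1.12 ± 0.58, adjusted p = 0.118): its raw counts were 26, 40 and 116 in MI1h_R and 41, 129 and 102 in Sham. Without MI1h_R replicate 41 it was called (-1.85, adjusted p = 0.0249), and also without Sham replicate 11 (-1.48, adjusted p = 0.0481). Of the distal arm, Ndufb9 had 152, 207 and 281 CPM in MI24h, against 749.8, 986 and 1413 CPM in Sham (-2.30 ± 0.27). Ndufb9 had 228, 273 and 322 CPM in MI1h_F, 199, 187 and 145 in MI6h_F, 142, 158 and 126 in MI24h_F, 347, 322 and 237 in MI1h_R and 169, 116 and 185 in MI6h_R, with MI24h_F lowest and MI1h_R highest on the mean of the injured groups. The 7 tested proximal members had a median of -2.31 and the 10 distal members of -2.34. Among the members shown with an ERR motif, Ndufb2 had -1.87 ± 0.23, Ndufb4 -2.56 ± 0.26 and Ndufs5 -2.25 ± 0.25, on both sides of the median of all members.

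Of Ndufa4 and Ndufa4l2, Ndufa4 was called in MI24h and its paralog was not. Ndufa4, the complex IV subunit, had 148, 190.3 and 251 CPM in MI24h, against 703, 918 and 1415 CPM in Sham (-2.37 ± 0.30, adjusted p = 4.54e-06). Ndufa4l2 had 12.3, 11.7 and 13.3 CPM in MI24h, against 13.5, 17.8 and 25.3 CPM in Sham (-0.60 ± 0.25, adjusted p = 0.0521). The scaling decides its direction: in TPM it had 37.9, 39.8 and 35.7 in MI24h, all above 24.36, 28.03 and 30.98 in Sham (0.43 on the log2(TPM + 1) scale), and it was 0.16 with library size alone. It was called lower with median-of-ratios factors (-0.65, adjusted p = 0.0358), in DESeq2 (-0.65, adjusted p = 0.0219) and without Sham replicate 11 (-0.80, adjusted p = 0.0145). In MI6h_R hearts Ndufa4l2 fell to 4.90, 5.24 and 6.17 CPM (-1.79 ± 0.26 against Sham).

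The size of the fall depended on the scaling, though its direction for the median member did not. With library size alone the medians against Sham were -1.42 in MI1h_F, -2.00 in MI6h_F, -2.33 in MI24h_F, -1.14 in MI1h_R, -1.81 in MI6h_R and -1.62 in MI24h, while the median of all genes stood at 0.80 to 0.92. On the log2(TPM + 1) scale they were -1.12, -1.79, -2.13, -1.06, -1.49 and -1.37, beside 0.72 to 0.99 for all genes. With the length trend removed they were -1.80, -2.27, -2.68, -1.78, -2.19 and -1.92. Across the 33 members the log2 fold change of MI24h against Sham had a Pearson r of -0.43 and a Spearman rho of -0.47 with log2 length, a description over genes that share libraries. Calls that ended under a scaling were Ndufa1 in MI1h_R (-1.23 ± 0.31; -0.38, adjusted p = 0.261 with library size; -0.31, adjusted p = 0.313 in TPM) and Ndufa4l2 in MI1h_R, MI1h_F and MI24h_F (adjusted p = 0.207, 0.414 and 0.0858 in TPM).

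The rest of the respiratory chain fell with complex I. In MI24h against Sham 34 of 34 tested nuclear genes of complexes II to V fell (median -2.41), as did 7 of 7 ND genes (median -2.07) and 14 of 15 assembly factors (median -1.48). With library size alone the counts were 33 of 34, 7 of 7 and 8 of 15, and on log2(TPM + 1) 33 of 34, 7 of 7 and 6 of 15, with 1 assembly factor higher. Summed TPM of 32 subunit rows, without Ndufa4 and Ndufa4l2, stayed at nearly 1 ratio to that of complexes II to V: 0.301 ± 0.0068 in MI1h_F, 0.301 ± 0.0159 in MI6h_F, 0.298 ± 0.0082 in MI24h_F, 0.302 ± 0.0189 in MI1h_R, 0.327 ± 0.0162 in MI6h_R and 0.312 ± 0.0116 in MI24h, against 0.302 ± 0.0048 in Sham (SD, n = 3). Only in MI6h_R did all 3 libraries lie above all Sham libraries. Cardiomyocyte markers fell as well, 10 of 12 in MI24h (median -3.05), 9 of 12 in MI1h_R (median -2.52) and 11 of 12 in MI6h_R (median -3.77), and 6 of 7 neutrophil markers rose in MI24h (median 5.18). Fibroblast markers fell too, 6 of 7 in MI24h (median -1.91), 4 of 7 in MI1h_R (median -1.34) and 6 of 7 in MI6h_R (median -2.33), though with library size alone 4 fell and 1 rose in MI24h. In MI24h 2 of 3 smooth muscle and pericyte markers fell (median -2.29). Macrophage and monocyte markers were split in MI24h, with 4 of 7 higher and 2 lower (median 1.04), against 4 and 0 with library size alone. In the same comparison 0 of 4 endothelial and 0 of 4 T cell markers were called, against 2 higher in each list with library size alone. Summed TPM of the cardiomyocyte markers ran from 11308 to 16171 in MI24h libraries, against 44605 to 56915 in Sham, and of the neutrophil markers from 1551 to 9915 in MI24h, against 56.8 to 238 in Sham. Fibroblast markers summed to 658 to 1116 TPM in MI24h, against 1404 to 2006 in Sham, and smooth muscle and pericyte markers to 46.2 to 85.6 in MI24h, against 146 to 211 in Sham. Monocyte and macrophage markers summed to 5032.5 to 6650 TPM in MI24h, against 311 to 1389 in Sham. T cell markers summed to 22.9 to 81.0 TPM in MI24h, against 3.7 to 18.7 in Sham. Neither this sum nor the 5 before it overlapped between the groups. Their part in the result was not tested. Of 10 regulators of respiratory chain genes 6 fell and 2 rose in MI24h (median -1.27), against 4 and 2 with library size alone (median -0.54) and 2 and 3 on log2(TPM + 1) (median -0.11). Perm1, a muscle coactivator, fell by 5.23 ± 0.83 and Ppargc1a, which encodes PGC-1α, by 3.53 ± 0.87 in MI24h, and Hif1a rose by 1.76 ± 0.28 on the log2 scale. Ppargc1a was not called on log2(TPM + 1) (-1.09, adjusted p = 0.0674). Esrra, which encodes ERRα, had no settled direction in MI24h against Sham, with -0.77 ± 0.16, against -0.01 with library size alone and 0.26 on log2(TPM + 1).

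**Figure D3:**
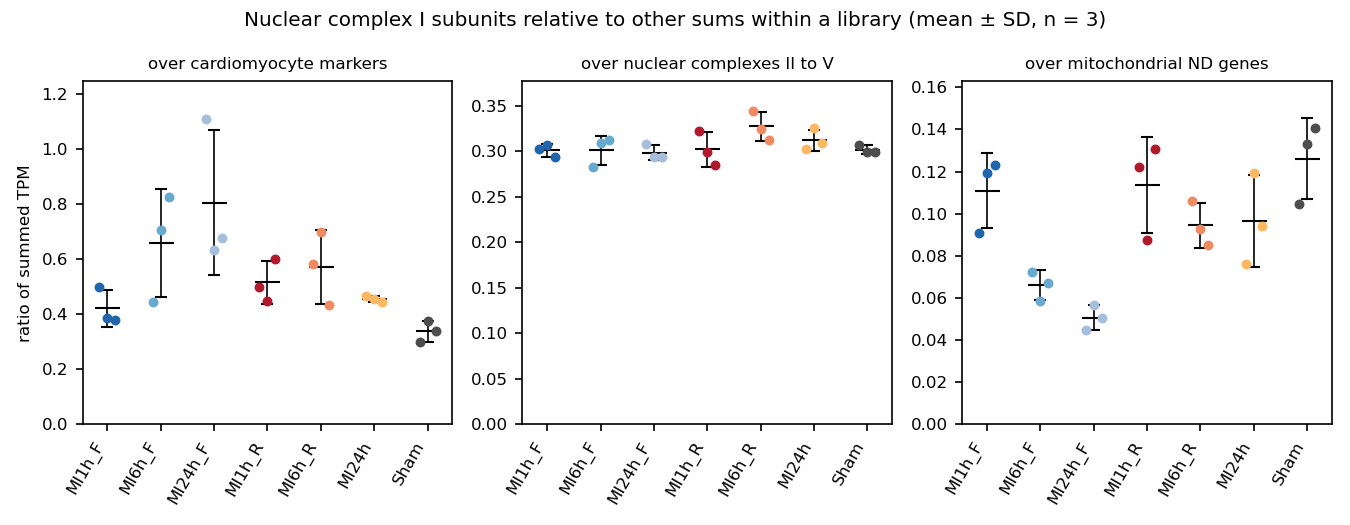
Ratio of the summed TPM of 32 complex I rows to that of 12 cardiomyocyte markers, of 34 nuclear genes of complexes II to V and of the 7 ND genes, per library (points) with mean and SD of 3 libraries. The ratio to complexes II to V stays near 0.30, the ratio to cardiomyocyte markers is highest in MI24h_F (0.806 ± 0.264) and lowest in Sham (0.338 ± 0.0378), and the ratio to ND genes is lowest in MI24h_F (0.0506 ± 0.006), against 0.126 ± 0.0191 in Sham.

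Transcripts from the nucleus and from mitochondrial DNA did not keep 1 proportion. Relative to the ND genes, summed TPM of the nuclear subunits was 0.111 ± 0.0177 in MI1h_F, 0.0661 ± 0.007 in MI6h_F, 0.0506 ± 0.006 in MI24h_F, 0.114 ± 0.0228 in MI1h_R, 0.0944 ± 0.0106 in MI6h_R and 0.0965 ± 0.0218 in MI24h, against 0.126 ± 0.0191 in Sham. All libraries of MI6h_F and MI24h_F lay below every other library, since the lowest value elsewhere was 0.0759 in an MI24h library. Relative to cardiomyocyte markers the sum was higher in every injured library than in any Sham library, with a lowest injured value of 0.379 and a highest Sham value of 0.374.

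With F, complex I transcripts were higher after early reperfusion than under permanent ligation. In MI1h_F against MI24h_F 25 of 33 members rose and 0 fell, beside 8.87% of all genes that rose and 6.74% that fell; the median was 0.95 for the members and 0.03 for all genes. The proximal arm subunit Ndufa8, which lies in the intermembrane space, had 30.6, 43.7 and 38.6 CPM in MI1h_F, against 16.8, 14.4 and 12.5 CPM in MI24h_F (1.37 ± 0.23, adjusted p = 0.00209). Ndufb3, a distal membrane subunit, had 40.6, 57.1 and 59.4 CPM in MI1h_F, against 18.1, 23.6 and 25.1 CPM in MI24h_F (1.23 ± 0.25, adjusted p = 0.00587). Ndufa13 had 57.9, 85.2 and 82.2 CPM in MI1h_F, against 20.6, 33.8 and 32.1 CPM in MI24h_F (1.38 ± 0.30, adjusted p = 0.00734). In all 3 the lowest MI1h_F library exceeded the highest MI24h_F library, as it did for 29 of 33 members, against 24.1% of all genes.

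Core subunits were among the genes that rose. Ndufv1 had 154, 250.2 and 294 CPM in MI1h_F, against 92.1, 109 and 86.8 CPM in MI24h_F (1.28 ± 0.28, adjusted p = 0.00775). Ndufv2 had 158, 163 and 226 CPM in MI1h_F, against 53.2, 86.5 and 88.8 CPM in MI24h_F (1.26 ± 0.29, adjusted p = 0.0101). Ndufs7 had 80.9, 108 and 147 CPM in MI1h_F, against 48.8, 47.4 and 39.9 CPM in MI24h_F (1.30 ± 0.29, adjusted p = 0.0088). MI1h_F replicate 1 was the lowest library of its group for these genes and still lay above every MI24h_F library. By module, 8 of 9 N, 5 of 5 Q, 5 of 7 proximal and 7 of 10 distal members rose, among them the distal subunits Ndufb8 (1.07 ± 0.23), Ndufb7 (1.07 ± 0.26) and Ndufb10 (1.10 ± 0.25). The members not called were Ndufa4 (0.84 ± 0.29, adjusted p = 0.0535), Ndufa4l2 (0.09), Ndufs4 (0.27), an N module subunit needed for its attachment, Ndufa1, Ndufb2, Ndufb6, Ndufb11 and Ndufc1.

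**Figure D4:**
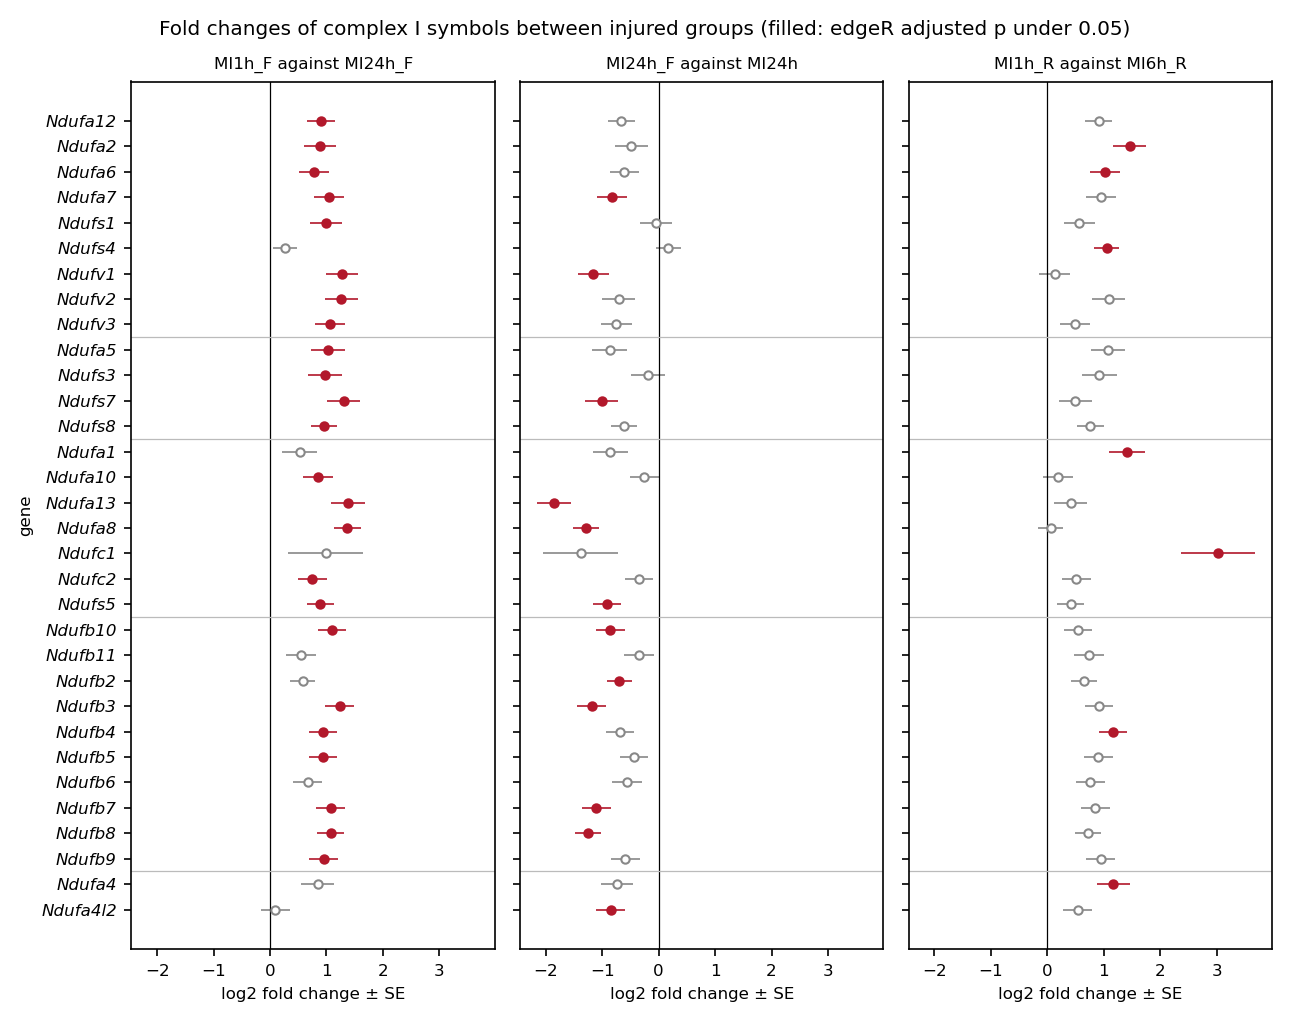
Log2 fold change with SE of 32 of the 33 tested members, ordered by module, in MI1h_F against MI24h_F, MI24h_F against MI24h and MI1h_R against MI6h_R; filled points have an edgeR adjusted p under 0.05. Values are mostly positive in the first and last panels (25 and 7 of all 33 called higher) and mostly negative in the middle one (12 called lower).

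The count of 25 changed with single libraries. It was 7 without MI24h_F replicate 1, 14 without replicate 2 and 16 without replicate 4, and 14 and 8 without MI1h_F replicates 4 and 5. Ndufa8, Ndufa13, Ndufb3, Ndufb7, Ndufb8, Ndufs7 and Ndufv1 were called whichever library was left out. Other genes moved along: in MI1h_F against MI24h_F 22 of 34 genes of complexes II to V rose (median 0.89), 2 of 15 assembly factors (0.35) and 0 of 7 ND genes (-0.14). Of the markers, 9 of 12 of cardiomyocytes rose (median 1.77) and 4 of 7 of neutrophils fell (median -1.95), while 5 of 7 of fibroblasts (median 1.08) and 3 of 3 of smooth muscle cells (median 1.62) also rose. Summed TPM ran at 13599 to 23982 in MI1h_F and 3254 to 6744 in MI24h_F for cardiomyocytes, and at 945.5 to 2649 in MI1h_F and 3850 to 5821 in MI24h_F for neutrophils. For monocytes and macrophages the sums ran at 3069 to 4848.5 in MI1h_F and 4977 to 6808 in MI24h_F, with no overlap. Sums of endothelial, T cell and red cell markers overlapped between these groups. Their part in the result was not tested. Of the 10 regulators 3 rose and 1 fell (median 1.19). Esrrb rose by 2.24 ± 0.72 (adjusted p = 0.0421), though not on log2(TPM + 1) (adjusted p = 0.0574). Ppargc1a rose by 2.97 ± 0.88 (adjusted p = 0.0295) and Perm1 by 2.88 ± 0.78 (adjusted p = 0.02), and Hif1a fell by 1.66 ± 0.28 (adjusted p = 0.00209).

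MI6h_F hearts lay between the other groups with F on the median member. Against MI24h_F 0 of 33 members were called (0.485% of all genes in either direction; 1 member at an unadjusted p under 0.05, and 0 in DESeq2), with a median of 0.32 that was 0.087 without MI6h_F replicate 1. In MI1h_F against MI6h_F 0 were called (0% of all genes; 20 members at an unadjusted p under 0.05, 2 in DESeq2), with a median of 0.63, and 4 were called without MI6h_F replicate 1. That library was the highest of its group for Ndufv1 with 168, 107 and 96.8 CPM and Ndufs3 with 90.0, 61.2 and 51.8 CPM in the 3 MI6h_F libraries.

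Between hearts without F, some members were higher after early than after late reperfusion. In MI1h_R against MI6h_R 7 of 33 members rose, beside 1.26% of all genes that rose, with a median of 0.77. Ndufa2, an N module subunit with a thioredoxin fold, had 77.5, 82.4 and 72.3 CPM in MI1h_R, against 24.1, 23.2 and 37.1 CPM in MI6h_R (1.46 ± 0.29, adjusted p = 0.0182). Ndufs4 had 62.2, 76.8 and 49.5 CPM in MI1h_R, against 33.5, 24.9 and 32.1 CPM in MI6h_R (1.06 ± 0.22, adjusted p = 0.0223). Ndufa1, a proximal arm subunit, had 41.3, 44.0 and 82.4 CPM in MI1h_R, against 20.99, 17.76 and 24.03 CPM in MI6h_R (1.42 ± 0.31, adjusted p = 0.0295). The groups did not overlap for these 3 genes, nor for 20 further members, 23 in all, against 13.2% of all genes. Ndufb4 of the distal arm had 82.0, 116 and 93.4 CPM in MI1h_R, against 40.5, 35.4 and 54.4 CPM in MI6h_R (1.16 ± 0.25, adjusted p = 0.026). Ndufa4 had 246, 337 and 248 CPM in MI1h_R, against 104, 88.3 and 177 CPM in MI6h_R (1.17 ± 0.29, adjusted p = 0.0413). Ndufa6 of the N module (1.03 ± 0.26) and Ndufc1 (3.03 ± 0.66, with 3, 9 and 15 counts in MI6h_R) also passed.

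None of the 7 calls was made in every fit that left out 1 library: 3 were made without MI1h_R replicate 11, 0 without replicate 31 and 14 without replicate 41, and 0 without MI6h_R replicate 11 or 21. Of complexes II to V 10 of 34 genes rose (median 0.67), as did 2 of 12 cardiomyocyte markers (median 0.84), whose summed TPM ran from 13951 to 17242 in MI1h_R and from 6906 to 16386 in MI6h_R. Neutrophil markers summed to 2242 to 4542.5 TPM in MI1h_R, against 4696 to 7002 in MI6h_R. Endothelial markers summed to 163 to 312, against 386 to 416, and 2 red cell markers to 3013 to 7045, against 9715.5 to 23920. T cell markers stood the other way, at 143 to 181, against 98.6 to 142. Apart from the cardiomyocyte ones, these sums did not overlap. Fibroblast, smooth muscle and macrophage sums overlapped. Their part in the result was not tested. In MI1h_R against MI24h 0 members were called (4.32% of all genes; 9 at an unadjusted p under 0.05, 2 in DESeq2), with Ndufa2 at the top (0.95 ± 0.29, adjusted p = 0.0674). In MI6h_R against MI24h Ndufa4l2 alone was called lower (-1.19 ± 0.26, adjusted p = 0.0394, beside 0.392% of all genes that fell), with 4.90, 5.24 and 6.17 CPM in MI6h_R and 12.3, 11.7 and 13.3 CPM in MI24h. Its groups did not overlap in CPM or in TPM, and the call was lost in each fit that left out 1 library (adjusted p = 0.0501 to 0.21). The highest Ndufa4l2 level of any injured group was in MI24h, and it fell in MI24h_F (-0.85 ± 0.26, adjusted p = 0.0364), with 5.07, 7.63 and 8.0 CPM there.

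Under permanent ligation, F went with lower complex I transcripts. In MI24h_F against MI24h 12 of 33 members fell and 0 rose, beside 7.78% of all genes that fell and 5.19% that rose, with a median of -0.71 for the members and -0.07 for all genes. Ndufa13 had 20.6, 33.8 and 32.1 CPM in MI24h_F, against 82.0, 103 and 129 CPM in MI24h (-1.86 ± 0.30, adjusted p = 0.00265). Ndufa8 had 16.8, 14.4 and 12.5 CPM in MI24h_F, against 28.1, 40.6 and 38.1 CPM in MI24h (-1.29 ± 0.23, adjusted p = 0.00349). Ndufb8, a distal arm subunit, had 53.1, 60.3 and 84.1 CPM in MI24h_F, against 136, 158 and 176 CPM in MI24h (-1.25 ± 0.23, adjusted p = 0.00399). These 3 kept their calls whichever library was left out, and for each the highest MI24h_F library was below the lowest MI24h one. That held for 24 of 33 members, against 21% of all genes, and 24 members had an unadjusted p under 0.05.

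This comparison and that of MI1h_F with MI24h_F share the MI24h_F libraries. Of the 7 core subunits 2 were called. Ndufv1 fell, with 92.1, 109 and 86.8 CPM in MI24h_F, against 197, 211 and 233 CPM in MI24h (-1.15 ± 0.28, adjusted p = 0.014), and so did Ndufs7 (-1.01 ± 0.29, adjusted p = 0.031). Ndufs1 had 160.0, 173 and 167 CPM in MI24h_F, against 141, 185 and 191 CPM in MI24h, groups that overlap (-0.05 ± 0.28, adjusted p = 0.93). Ndufs3 (-0.18 ± 0.30) and Ndufs4 (0.18 ± 0.22) were likewise not called. Ndufb3 had 18.1, 23.6 and 25.1 CPM in MI24h_F, against 37.9, 47.8 and 66.2 CPM in MI24h (-1.19 ± 0.25, adjusted p = 0.00774). Ndufb7, a distal subunit on the intermembrane side, had 38.8, 42.4 and 39.3 CPM in MI24h_F, against 69.9, 81.8 and 108 CPM in MI24h (-1.10 ± 0.26, adjusted p = 0.0112). The others that fell were Ndufs5 (-0.91 ± 0.24), Ndufb10, Ndufa7, Ndufb2 and Ndufa4l2. The count was 3, 7 and 7 without MI24h_F replicates 1, 2 and 4, and 6 without MI24h replicate 21 or 41. Across the 33 members the change had a Pearson r of 0.40 and a Spearman rho of 0.35 with log2 length, so shorter members were on the whole lower, and with the length trend removed 7 were called.

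Alongside, 13 of 34 genes of complexes II to V fell (median -0.63), 5 of 12 cardiomyocyte markers fell (median -1.39) and 0 of 7 ND genes were called (median 0.42). Summed TPM of cardiomyocyte markers ran from 3254 to 6744 in MI24h_F, against 11308 to 16171 in MI24h. Fibroblast markers stood the other way, with a sum of 1163 to 1339 TPM in MI24h_F, against 658 to 1116 in MI24h, while 0 of 7 were called (median 0.53; 0 at an unadjusted p under 0.05, and 0 called on log2(TPM + 1)). Of the other markers 1 of 7 of monocytes and macrophages and 1 of 4 endothelial ones fell, and 0 of 7 of neutrophils and 0 of 3 of smooth muscle cells and pericytes were called (0 and 1 at an unadjusted p under 0.05). Red cell markers summed to 14742 to 41873 TPM in MI24h_F, against 5242 to 15037 in MI24h. T cell markers summed to 36.0 to 68.7 TPM in MI24h_F, against 22.9 to 81.0 in MI24h. Both of these sums overlapped. Their part in the result was not tested. Of the 10 regulators 1 fell and 1 rose (median -0.51). Esrra fell by 0.99 ± 0.16 (adjusted p = 0.00276) and Hif1a rose by 1.07 ± 0.28 (adjusted p = 0.0182).

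After reperfusion the comparison with F gave few calls. In MI6h_F against MI6h_R Ndufa13 alone fell, with 36.9, 20.3 and 34.3 CPM in MI6h_F, against 81.5, 56.5 and 90.2 CPM in MI6h_R (-1.32 ± 0.30, adjusted p = 0.0126), beside 5.71% of all genes that fell. It was not called without MI6h_F replicate 2 (adjusted p = 0.0778), and 2 members were called without MI6h_F replicate 1. In MI1h_F against MI1h_R 0 members were called (0.0766% of all genes; 4 at an unadjusted p under 0.05, 0 in DESeq2), with 57.9, 85.2 and 82.2 CPM of Ndufa13 in MI1h_F and 120.5, 86.0 and 98.9 CPM in MI1h_R (-0.44 ± 0.29). The effect of F averaged over the 3 injuries called 11 members lower and 0 higher, beside 15.7% of all genes that fell and 11.3% that rose, and the lower members included Ndufa13 (-1.21 ± 0.17, adjusted p = 0.000126), Ndufb8 (-0.80 ± 0.13), Ndufb3 (-0.74 ± 0.14), Ndufa8 (-0.65 ± 0.13), Ndufb7 (-0.61 ± 0.15), Ndufs5, Ndufv1, Ndufb4, Ndufa1 and Ndufb10. Of the 10 regulators Esrra alone was called, and it fell by 0.83 ± 0.09 (adjusted p = 4.14e-05). Alongside, 12 of 34 genes of complexes II to V fell. Of 7 fibroblast markers 4 rose in MI6h_F against MI6h_R (median 1.16) and 5 with F on average (median 0.90). Red cell markers summed to 10846 to 15664 TPM in MI1h_F, against 3013 to 7045 in MI1h_R, with no overlap. In MI6h_F they summed to 16772 to 41465 TPM, against 9715.5 to 23920 in MI6h_R, and overlapped. Fibroblast markers summed to 2383 to 3071.5 TPM in MI1h_F, against 777.5 to 1337 in MI1h_R. T cell markers summed to 50.8 to 101.9 TPM, against 143 to 181. In MI6h_F fibroblast markers summed to 1173 to 2756.5 TPM, against 667 to 941 in MI6h_R. Neutrophil markers summed to 3076 to 3137, against 4696 to 7002, and endothelial ones to 270 to 361, against 386 to 416. These fibroblast, T cell, neutrophil and endothelial sums did not overlap, and apart from red cells the others did. The part of these lists in the result was not tested. The change in the effect of F between injuries was tested as an interaction, and 0 members were called in any of the 3 (0%, 0% and 0.00852% of all genes). At an unadjusted p under 0.05 there were 7 for MI1h minus MI24h, 12 for MI6h minus MI24h and 4 for MI1h minus MI6h, and DESeq2 called 1 in the first of these. Ndufa13 differed by 1.42 ± 0.42 for MI1h minus MI24h (adjusted p = 0.169).

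Transcript length set Ndufv3, an N module subunit, apart from the other members. In human and mouse this gene gives a short and a long splice form, the long one with a large extra exon. Its effective length, relative to the median gene, was 0.262, 0.187 and 0.170 in MI1h_F libraries, 0.194, 0.256 and 0.321 in MI6h_F, 0.287, 0.286 and 0.363 in MI24h_F, 0.204, 0.195 and 0.179 in MI1h_R, 0.277, 0.294 and 0.205 in MI6h_R and 0.210, 0.215 and 0.210 in MI24h, against 0.148, 0.147 and 0.139 in Sham. Every injured library was above every Sham library. The ratio of the highest to the lowest geometric group mean was 2.15, a size reached by 5 of the 8234 genes with a length in every library (0.0607%), beside a median of 1.01, and the next such member had 1.11. Effective length comes from the authors' estimates of the share of each transcript form, so it describes those estimates and not a measured form. In counts Ndufv3 had a log2 fold change of -2.29 ± 0.28 in MI24h against Sham, beside a module median of -2.43, and of 1.07 ± 0.27 in MI1h_F against MI24h_F.

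**Figure D5:**
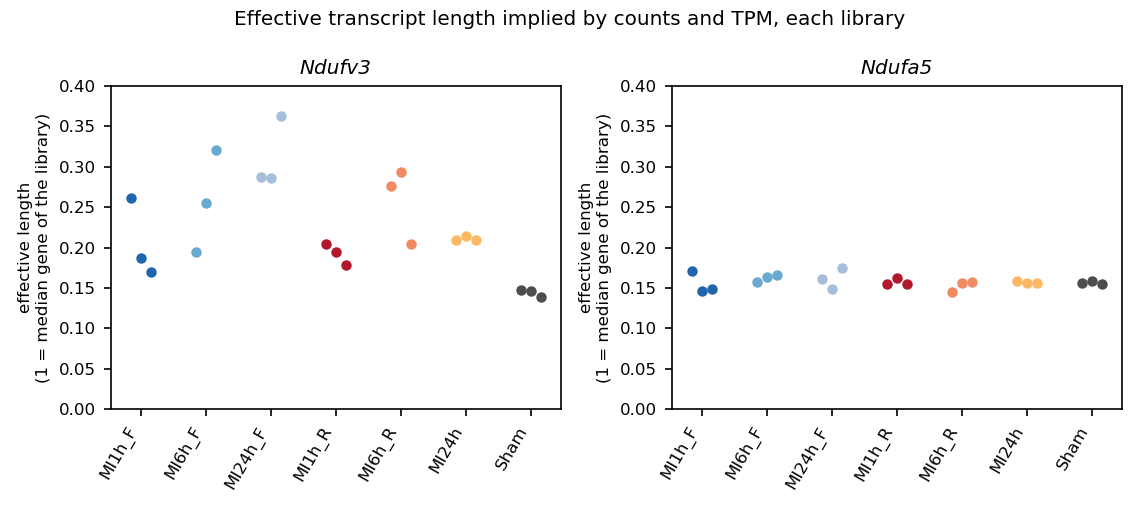
Effective length relative to the median gene, per library, for Ndufv3 and, for comparison, Ndufa5, with the injured groups left of Sham. Ndufv3 runs from 0.170 to 0.363 in injured libraries and from 0.139 to 0.148 in Sham, while Ndufa5 stays between 0.145 and 0.175 in all libraries.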

How the data were processed

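Per the labels' protocols, total RNA was isolated with RNeasy columns and DNase, and NEBNext Ultra mRNA libraries were read on an Illumina HiSeq. The submitters' processing notes name STAR 2.7.3a, RSEM 1.3.1 and the genome rn7; the annotation and the strandedness are not given in the sources used here. The authors deposited estimated counts per gene symbol, which were whole numbers in the file, and TPM, in 1 table each. TPM were used for levels between genes and, with the counts, for a relative effective length (counts over TPM, set against the median gene).

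Counts were tested with edgeR 4.0.16 in R 4.3.3 (TMM scaling, filterByExpr on the 7 groups, quasi-likelihood fit with 1 term per group over 21 libraries), the Benjamini-Hochberg adjustment ran over 11742 genes in each of 19 comparisons, and a gene was called at an adjusted p under 0.05. Alternatives used DESeq2 1.42.0, limma 3.58.1 on log2(TPM + 1), other scaling factors, no filter, removal of a length trend, removal of 3363 rows with identical counts, only the groups compared, each library left out, and a replicate block. The 3363 rows were sought among all 17085, before the filter, and rows of only zeros were not set aside. The fit was tested on simulated data. The members and lists were chosen with earlier results of these data known. Values of 1 member are not reported here. Library values were given for the other core subunits, Ndufa4, Ndufa4l2, the most abundant member of each module, the largest and smallest change of MI24h against Sham, and up to 8 members with the smallest p elsewhere; other members may be named within their module. Library totals of 12208041 or more leave counting error small for all members but Ndufc1, Ndufa4l2 and Ndufs6. Figures were drawn with matplotlib 3.10.9.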

Additional observations from a re-analysis of the deposited data

How the results depend on the processing

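Against Sham the count of members called was 32 or 33 of 33 under the alternatives run and with any library left out, except in MI1h_R, where scaling by library size alone gave 30, as did log2(TPM + 1). Other counts moved more. In MI1h_F against MI24h_F (25 called) leaving out a library gave 7 to 21. In MI1h_R against MI6h_R (7 called) it was 3 with the length trend removed, 18 in DESeq2, 1 with only the groups compared, and 0 to 14 with a library left out. In MI24h_F against MI24h (12 called) it was 7 with the length trend removed and 3 to 12 with a library left out. In MI6h_F against MI6h_R (1 called) it was 2 with library size alone, 2 with the length trend removed, 5 on log2(TPM + 1), 2 with only the groups compared, and 0 to 2 with a library left out. The member gained with the length trend removed and with only the groups compared was Ndufs4, which was higher (0.55 and 0.60, edgeR adjusted p = 0.0431 and 0.0491). Those gained with library size alone and on log2(TPM + 1) were lower. In MI6h_R against MI24h (1 called) it was 0 with library size alone, without the filter on low counts, with the length trend removed, on log2(TPM + 1), with only the groups compared and with any library left out. From 0 called, MI1h_R against MI24h gave 3 with library size alone, 1 with the length trend removed, 2 in DESeq2, 1 on log2(TPM + 1) and 0 to 1 with a library left out. MI1h_F against MI6h_F gave 2 in DESeq2 and 0 to 4 with a library left out, and the effect of F in MI1h minus that in MI24h gave 1 in DESeq2. The median of MI6h_F against MI6h_R (-0.09) ran from -0.27 to 0.14 with a library left out, so it has no settled sign, and that of MI6h_F against MI24h_F (0.32) from 0.087 to 0.40. The cause was not tested.

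Correlations gave no sign that the replicate numbers pair the libraries: of 20 same-numbered pairs 5 had deviations correlated over 0.1 (-0.538 to 0.32), and a library correlated best with its own number in 1 of 12 cases in the groups lacking F and in 0 of 9 in those with it. With 3 libraries per group such correlations cannot exclude a shared batch. With the number as a block the count was 0 in MI1h_F against MI24h_F (28 in the same libraries without the block, a fit added after seeing the data), 0 in MI1h_R against MI6h_R (0 without) and 0 in MI6h_R against MI24h (0 without). In the groups with F the block adds terms to a fit on 9 libraries, and why the 28 calls were lost was not tested. Of 10989 values of single members under the alternatives, 248 lost and 87 gained a call and 0 changed sign while called. Counting error is largest for Ndufs6, with 6 counts in all, and Ndufc1; why they are low was not tested.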

Other observations

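Genes that build complex I without staying in it had smaller median changes than its subunits. Of 15 assembly factors 12 were called lower in MI1h_F against Sham, 15 in MI6h_F, 15 in MI24h_F, 11 in MI1h_R, 15 in MI6h_R and 14 in MI24h, with medians of -1.13, -1.40, -1.51, -0.90, -1.61 and -1.48 in that order; the difference from the subunits was not tested. These counts rest on the TMM scaling: with library size alone they were 4, 7, 9, 4, 9 and 8, and on log2(TPM + 1) 3, 5, 7, 3, 4 and 6, with 1 or 2 factors higher. Ecsit, which works in the assembly of the membrane arm and also in Toll-like receptor signalling, had the largest fall in each of these comparisons (-2.60 ± 0.27 in MI24h, edgeR adjusted p = 8.7e-07). Ndufaf3, an assembly factor of the Q module, fell by 2.03 ± 0.22 in MI24h. Ndufaf7, a methyltransferase of the mitochondrial matrix, had the smallest change (-0.44 ± 0.21, adjusted p = 0.0887), a gene picked after its values were seen.

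Ndufab1, the mitochondrial acyl carrier protein that sits in complex I and also serves fatty acid synthesis, followed the subunits although its symbol falls outside the pattern. It had 41.7 ± 3.36 TPM in MI1h_F, 26.5 ± 6.72 in MI6h_F, 20.2 ± 1.52 in MI24h_F, 41.7 ± 2.10 in MI1h_R, 32.9 ± 9.70 in MI6h_R and 37.5 ± 6.35 in MI24h, against 103.8 ± 8.42 in Sham (SD, n = 3). On the count scale Ndufab1 was called higher in MI1h_F against MI24h_F (0.98 ± 0.24, adjusted p = 0.0137) and lower in MI24h_F against MI24h (-0.93 ± 0.24, adjusted p = 0.0198).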
